A study of Mus musculus with 16 samples.

Results

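The collagen genes are described here in mouse lumbar dorsal root ganglia, the clusters of sensory neurons whose axons serve the hind limb. They were taken as every row of the count table whose symbol reads Col, a number, the letter a and a number, which gave 44 of 24982 gene entries. By type, 11 encode fibrillar collagens, 6 encode the type IV collagens of basement membranes and 27 encode other collagens. A filter on low counts left 40 of the 44 among 15507 genes tested, 11 fibrillar, 5 type IV and 24 other. Ganglia came from C57BL/6 mice of 10 to 12 weeks, either wild type (WT) or knock-in mice that the labels call TrkA-C or TrkAC, a construct the labels do not describe further. The ankle joint had received complete Freund's adjuvant, an emulsion that inflames the joint (titled MoAr, for an arthritis model), or vehicle (titled Saline), and ganglia were taken 14 days later. The groups were TrkA-C MoAr, TrkA-C Saline, WT MoAr and WT Saline, with 4 libraries each, and every library pooled 6 ganglia of levels L4 to L6 from 2 mice.

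Collagens are extracellular proteins built of chains wound into a triple helix. Fibrillar collagens such as type I and type III form the tensile fibres of the connective tissue sheath around ganglia and nerves, and fibroblasts are their main source. Type IV collagen forms the sheet-like network of the basement membrane that surrounds each Schwann cell, each satellite glial cell with its neuron, and every capillary. The remaining types link or decorate fibrils, form beaded filaments or hexagonal networks, or sit in cell membranes.

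Library totals ran from 22742209 to 40910947 counts, of which 0.0669% to 0.125% came from collagen genes. Ntrk3, the TrkC gene, was at 99.1 to 138 CPM (read counts scaled to library size, TMM-normalised) in the 8 TrkA-C libraries and at 29.3 to 61.4 CPM in the 8 WT libraries. For WT MoAr 1 the title says WT while the genotype field says knock-in; Ntrk3 was at 48.4 CPM there, within the WT range, and the library was kept in the group of its title. Libraries also differed in markers of muscle and of neutrophils and marrow, and the origin of that RNA was not tested. The 11 skeletal muscle markers summed to 1031, 2.09, 138 and 971 CPM in TrkA-C Saline 1 to 4, against 1.62 to 90.5 CPM in the 12 other libraries. The 9 neutrophil and marrow markers summed to 296 CPM in TrkA-C MoAr 3, against 4.91 to 34.1 CPM in the 15 other libraries. The ganglion's own Schwann cell markers were present throughout, summing to 3659 to 5693 CPM.

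Col28a1 had the highest transcript level per length. Its mean over 16 libraries was 20.5 CPM per kb of exon, followed by Col4a1 at 15.3, Col1a2 at 12.0, Col1a1 at 11.6, Col4a2 at 9.85, Col5a3 at 7.82 and Col3a1 at 6.97 CPM per kb. Col28a1 encodes a beaded-filament-like collagen with von Willebrand factor domains that is known from the surface of peripheral glia, and the others encode chains of the type IV, I, V and III collagens. In CPM, which favours long transcripts, the first 8 were Col1a2 (149), Col4a1 (114), Col28a1 (101), Col1a1 (76.3), Col3a1 (68.4), Col4a2 (65.2), Col5a3 (53.3) and Col15a1 (43.3). These 8 genes held 69.0% of the summed collagen CPM. Fibrillar members held 43.7% of that sum, type IV members 19.1% and the other members 37.2%.

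The low end was far below. Col9a1, Col6a6, Col4a6 and Col17a1 did not pass the filter, with 17, 51, 51 and 95 counts over all 16 libraries. Col9a1, a cartilage collagen, had 0 counts in 8 libraries. Col4a6, a minor type IV chain, is the member of the type IV class that no test covers. Col2a1, the main cartilage fibril collagen, was tested at 0.170 CPM per kb. Both ends of that scale can be read from the plot of levels by gene.

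**Figure D1:**
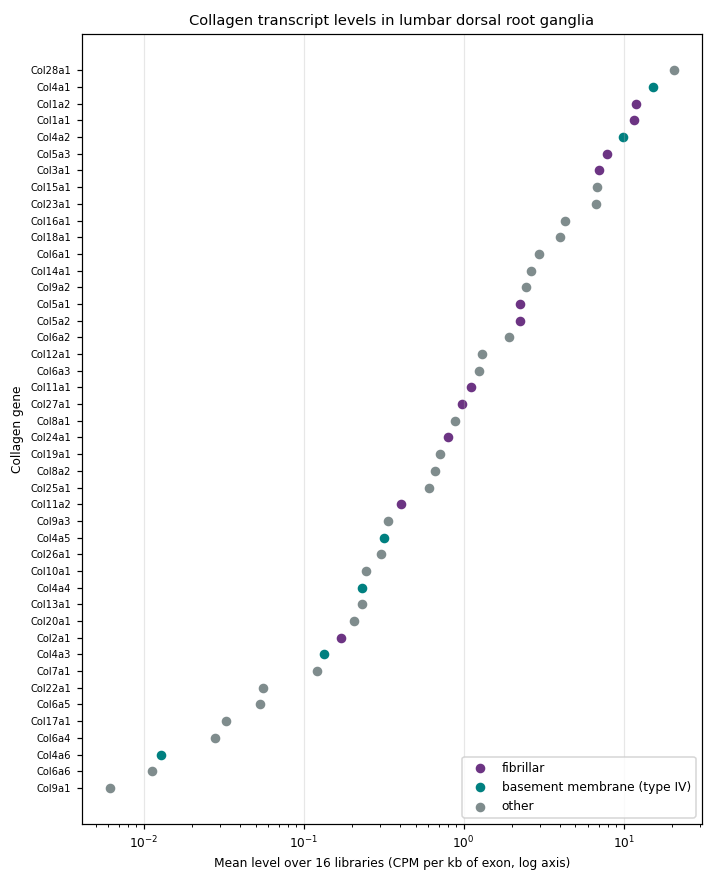
Mean level of the 44 collagen genes over 16 libraries, in CPM per kb of exon on a log axis, coloured by class. Col28a1 stands at the top with 20.5 CPM per kb, and Col9a1 at the bottom with 0.00615.

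The 2 chains of type I collagen had nearly parallel levels from library to library. Col1a1 (chromosome 11, 94936224 to 94953042, build GRCm38.p6) read 106, 63.3, 68.5 and 70.1 CPM in TrkA-C MoAr, 64.0, 89.9, 91.5 and 116 CPM in TrkA-C Saline, 77.9, 90.8, 46.5 and 65.3 CPM in WT MoAr, and 66.0, 72.6, 73.3 and 58.9 CPM in WT Saline. Its partner Col1a2 (chromosome 6, 4505618 to 4541543) read 184, 123, 137 and 140 CPM in TrkA-C MoAr, 137, 169, 165 and 197 CPM in TrkA-C Saline, 155, 169, 97.8 and 141 CPM in WT MoAr, and 139, 140, 154 and 133 CPM in WT Saline. TrkA-C Saline 4 was the highest library for both genes and WT MoAr 3 the lowest, and every pair of groups overlapped. The Col1a1 to Col1a2 ratio of CPM stayed between 0.442 and 0.590.

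Over 16 libraries the log2 CPM of Col1a1 and Col1a2 had a Pearson r of 0.97 and a Spearman rho of 0.95. Without TrkA-C Saline 4 and WT MoAr 3, the libraries farthest from the median, r was 0.95. For Col4a1 and Col4a2, the main type IV chains, r was 0.95 and rho 0.78, and r was 0.90 without the 2 farthest libraries. For Col6a1 and Col6a2, chains of the beaded filament collagen VI, r was 0.94 and rho 0.82, and r was 0.88 without the 2 farthest. These pairs were chosen after all correlations had been seen, so the values are a description with no test. Among all 780 pairs of tested collagens the 3 pairs ranked 1, 2 and 4. With the group means removed, r was 0.97, 0.95 and 0.93 in the same order, so the values were much the same within the groups.

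**Figure D2:**
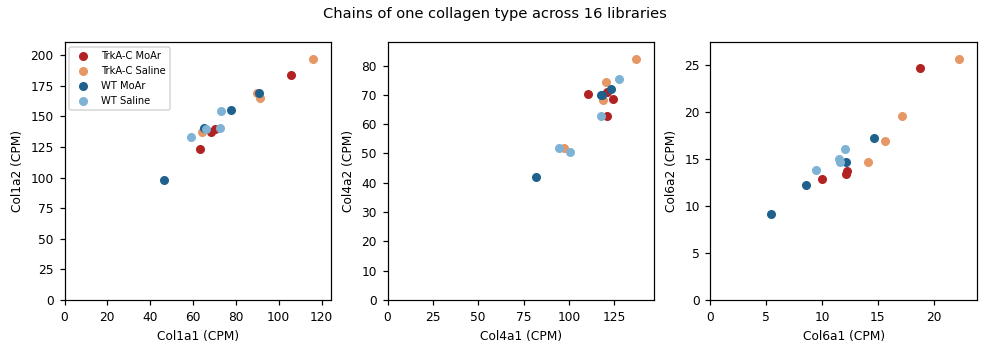
CPM of Col1a2 against Col1a1, Col4a2 against Col4a1 and Col6a2 against Col6a1 in 16 libraries, one point per library, coloured by group. The points lie close to a line in each panel, with Pearson r of 0.97, 0.95 and 0.94 on the log2 scale.

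Chains that share a type number did not all correlate highly in these counts. The 27 pairs of chains of the same type had a median r of 0.44 and ranged from -0.42 to 0.97, against a median of 0.33 for the 753 pairs of different types, which reached 0.95. Col6a3, the third chain of the classic type VI filament, had r of 0.74 with Col6a1 and 0.67 with Col6a2. Col5a1 and Col5a2, which copolymerise with type I collagen, had r of 0.68. The pair Col4a3 and Col4a4, chains of the mature kidney filter, had r of 0.22, and Col9a2 and Col9a3, cartilage fibril-associated chains, had r of -0.34. Several chains of the low pairs had few counts per library: Col4a3 17 to 62, Col9a3 16 to 60 and Col6a5, in the pair at -0.42 with Col6a3, 5 to 27. Col1a1 had 1304 to 3393. The part of counting noise in the low values was not tested. All of these values are descriptions over libraries that differ in depth and in muscle and marrow markers.

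Col4a1 and Col4a2 lie head to head on chromosome 8 (11198423 to 11312889 and 11312805 to 11449287, build GRCm38.p6) and are transcribed away from each other. Their annotated spans overlap by 85 bases at the 5′ ends, and those of Col4a4 and Col4a3 on chromosome 1 overlap by 114 bases. Because the strand mode of counting is not given in the sources used here, reads in these overlaps cannot be assigned with certainty. The RefSeq promoter windows, 250 bases before to 50 bases after each start, are shown because the genes' levels ran in parallel and the windows share 78 bases, in capitals. The Col4a1 window is chr8:11312777-11313076 on the minus strand and the Col4a2 window is chr8:11312555-11312854 on the plus strand, both in GRCm38.p6 and both written 5′ to 3′ on the gene's strand.
Col4a1: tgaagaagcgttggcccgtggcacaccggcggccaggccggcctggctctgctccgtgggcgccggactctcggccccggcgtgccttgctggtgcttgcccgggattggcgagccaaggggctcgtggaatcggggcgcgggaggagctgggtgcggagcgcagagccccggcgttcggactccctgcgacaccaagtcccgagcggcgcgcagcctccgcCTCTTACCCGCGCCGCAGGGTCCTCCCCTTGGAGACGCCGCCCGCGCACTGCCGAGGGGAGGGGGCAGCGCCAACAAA
Col4a2: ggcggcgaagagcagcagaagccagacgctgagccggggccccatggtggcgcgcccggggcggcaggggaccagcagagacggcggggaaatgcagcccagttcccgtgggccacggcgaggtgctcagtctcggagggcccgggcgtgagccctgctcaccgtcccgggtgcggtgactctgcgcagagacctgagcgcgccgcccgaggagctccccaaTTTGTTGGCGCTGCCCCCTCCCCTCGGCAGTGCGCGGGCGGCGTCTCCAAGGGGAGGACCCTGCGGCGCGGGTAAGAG
The shared stretch is thus read on opposite strands in the 2 lines, and the starts that the windows are set on lie within it, 21 bases apart. The annotated span of Col4a1 has its 5′ end at 11312889, outside the shared stretch, so the Col4a1 window is set on a start inside that span. Both windows hold CCAAT and GGGCGG on either strand, which stand in 37.4% and 35.7% of the 32851 promoter windows in the RefSeq table. Neither holds TATAAA, which 13.6% of the windows do. Windows were found for 35 of the 44 members.

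Col4a1 read 124, 111, 121 and 121 CPM in TrkA-C MoAr, 97.3, 121, 119 and 137 CPM in TrkA-C Saline, 123, 118, 82.1 and 117 CPM in WT MoAr, and 100.3, 94.5, 128 and 118 CPM in WT Saline. Col4a2 read 68.6, 70.1, 70.9 and 62.8 CPM in TrkA-C MoAr, 51.9, 74.4, 68.2 and 82.3 CPM in TrkA-C Saline, 71.9, 69.9, 41.8 and 70.0 CPM in WT MoAr, and 50.4, 51.8, 75.4 and 62.9 CPM in WT Saline. The 4 groups overlapped for both genes, and WT MoAr 3 was the lowest library. Neither gene passed the test in any of the 7 comparisons.

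Col28a1 was the steadiest of the abundant members, with group means of 98.6 ± 10.4 CPM in TrkA-C MoAr, 102 ± 7.29 in TrkA-C Saline, 97.2 ± 4.28 in WT MoAr and 105 ± 15.9 in WT Saline (SD, n = 4 each). Its log2 difference between TrkA-C and WT was 0.02 ± 0.09 (SE) after MoAr and -0.03 ± 0.09 after Saline.

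Summed over the 11 fibrillar genes, levels were 528, 373, 393 and 396 CPM in TrkA-C MoAr, 392, 476, 482 and 568 CPM in TrkA-C Saline, 466, 479, 280 and 420 CPM in WT MoAr, and 368, 374, 427 and 375 CPM in WT Saline. The 6 type IV genes summed to 200, 185, 198 and 189 CPM in TrkA-C MoAr, 156, 201, 193 and 227 CPM in TrkA-C Saline, 200, 194, 128 and 194 CPM in WT MoAr, and 157, 152, 211 and 186 CPM in WT Saline. The 27 other genes summed to 415, 341, 358 and 342 CPM in TrkA-C MoAr, 339, 400, 397 and 449 CPM in TrkA-C Saline, 362, 358, 272 and 355 CPM in WT MoAr, and 320, 320, 386 and 366 CPM in WT Saline. The groups overlapped in all 3 classes. TrkA-C Saline 4 was highest and WT MoAr 3 lowest in each class, by a factor of 2.03 for fibrillar, 1.78 for type IV and 1.65 for other collagens. Among the 40 tested members, WT MoAr 3 held the lowest value of 20 and TrkA-C Saline 4 the highest of 18. In bulk ganglia, fewer cells of a type and less RNA per cell cannot be told apart.

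**Figure D3:**
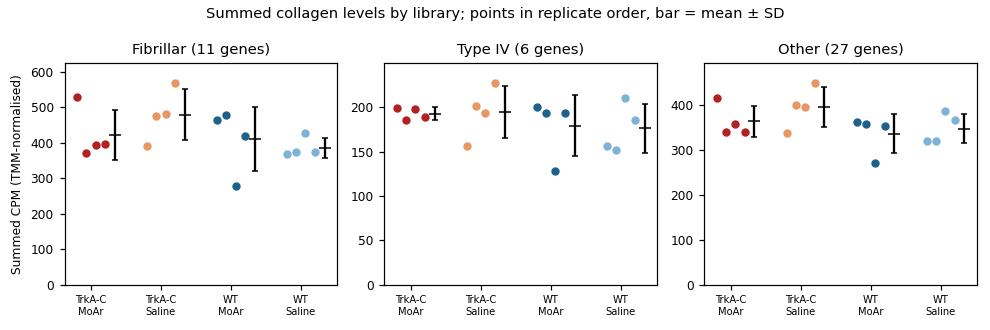
Summed CPM of fibrillar, type IV and other collagen genes by library in the 4 groups, with points in replicate order and mean ± SD as a bar. TrkA-C Saline 4 (568, 227 and 449 CPM) and WT MoAr 3 (280, 128 and 272 CPM) mark the ends of the range in each panel.

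The first comparison asked how collagen transcripts of TrkA-C ganglia differ from WT after vehicle. Of the 40 collagens, 1 rose in TrkA-C Saline relative to WT Saline and 0 fell by edgeR's quasi-likelihood test (Benjamini-Hochberg adjusted p under 0.05 over all 15507 genes), which is 2.5% against 4.34% of all genes called (2.15% higher and 2.19% lower). The count is therefore no larger than for genes at large. DESeq2 called 3 and limma-voom 2. The number of all genes called changed between fits as well. It was 673 here and 132 to 1999 over the alternatives other than leaving out 1 library. At an unadjusted p under 0.05 there were 13 of 40 (32.5%), 10 of them higher, against 23.8% of all genes.

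Col27a1, a fibrillar collagen known mainly from cartilage, was the gene called. It read 16.1, 13.8, 17.8 and 15.4 CPM in TrkA-C Saline, against 7.85, 8.76, 11.6 and 10.9 CPM in WT Saline. Every TrkA-C Saline library lay above every WT Saline library. The log2 fold change was 0.69 ± 0.17 (edgeR adjusted p = 0.0316; 0.00252 to 0.168 over the alternatives that kept all libraries or left out a pair). The gene is on chromosome 4, 63214009 to 63334991. After MoAr it read 13.7, 13.9, 10.9 and 12.7 CPM in TrkA-C, against 15.7, 12.7, 7.70 and 14.7 CPM in WT, and the log2 difference was 0.00 ± 0.17. The difference between these genotype effects was -0.69 ± 0.24 (edgeR adjusted p = 0.718), so it did not pass the test. The Saline call was lost without TrkA-C Saline 1 (0.68), 3 (0.64) or 4 (0.71) or WT Saline 1 (0.60) or 2 (0.65), and also with the muscle marker score as a covariate (0.66, adjusted p = 0.0778), with the fibroblast and stroma score (0.56, adjusted p = 0.0764) and without TrkA-C Saline 1 and 4 (0.70, adjusted p = 0.168).

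There were 4 collagens whose TrkA-C Saline libraries all lay above the WT Saline libraries, 10.0% of 40 against 6.67% of all genes tested, and 0 whose libraries all lay below, against 7.89%. Besides Col27a1 these were Col12a1, Col6a1 and Col24a1. Col12a1, a fibril-associated collagen of dense connective tissue, read 19.1, 22.5, 25.5 and 34.5 CPM in TrkA-C Saline, against 18.9, 15.4, 18.7 and 15.8 CPM in WT Saline (log2 difference 0.56 ± 0.19, edgeR adjusted p = 0.0870). Col6a1 read 14.2, 15.7, 17.1 and 22.3 CPM in TrkA-C Saline, against 11.6, 11.6, 12.1 and 9.46 CPM in WT Saline (0.63 ± 0.23, edgeR adjusted p = 0.115). Col24a1, a minor fibrillar collagen known from bone, read 6.79, 6.65, 7.98 and 8.07 CPM in TrkA-C Saline, against 3.36, 2.69, 5.74 and 6.12 CPM in WT Saline (0.73 ± 0.28, edgeR adjusted p = 0.123). The gap between the Col12a1 groups was narrow, 19.1 against 18.9 CPM at the nearest libraries. Col24a1 was low in WT Saline 1 and 2 and lay close to the TrkA-C values in WT Saline 3 and 4. Col6a3 (0.57 ± 0.18, edgeR adjusted p = 0.0689) and Col8a1, a short-chain network collagen of vessel walls (0.39 ± 0.15, edgeR adjusted p = 0.126), completed the 6 smallest p-values, and their groups overlapped.

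Small positive differences were spread over the classes after Saline. The log2 difference was positive for 32 of 40 collagens (80.0%), against 50.4% of all genes tested, with a median of 0.27 against 0.00 for all genes. Fibrillar members were positive in 11 of 11 (median 0.36, range 0.24 to 0.73), type IV members in 5 of 5 (median 0.16, range 0.01 to 0.35) and other members in 16 of 24 (median 0.18, range -0.75 to 0.87). Since the members' levels run in parallel across libraries, these signs are not independent of each other. The median stayed between 0.20 and 0.34 when any 1 library was left out, and was 0.08 with the fibroblast and stroma marker score as a covariate. Of 13 tested fibroblast and stroma markers, 1 rose (Pdgfra, 0.59 ± 0.15, edgeR adjusted p = 0.0396) and 11 were positive, and the list summed to 904 to 1230 CPM in TrkA-C Saline and 945 to 1411 CPM in WT Saline. The Pdgfra call was lost without TrkA-C Saline 3 (0.59) or 4 (0.45) or WT Saline 1 (0.57), 2 (0.58) or 4 (0.53), with the muscle score (0.54) and without TrkA-C Saline 1 and 4 (0.50). It was also lost with the replicate block, in a fit of the compared groups alone, and with the fibroblast and stroma score, which includes Pdgfra. Of 8 perineurial and meningeal markers, genes of the sheaths around nerve and ganglion, 0 were called after Saline, 7 were positive (median 0.73), and the list summed to 139 to 197 CPM in TrkA-C Saline and 133 to 188 CPM in WT Saline. Of 11 muscle markers 3 rose. The part of these tissues in the collagen differences was not tested beyond the fits with a covariate.

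**Figure D4:**
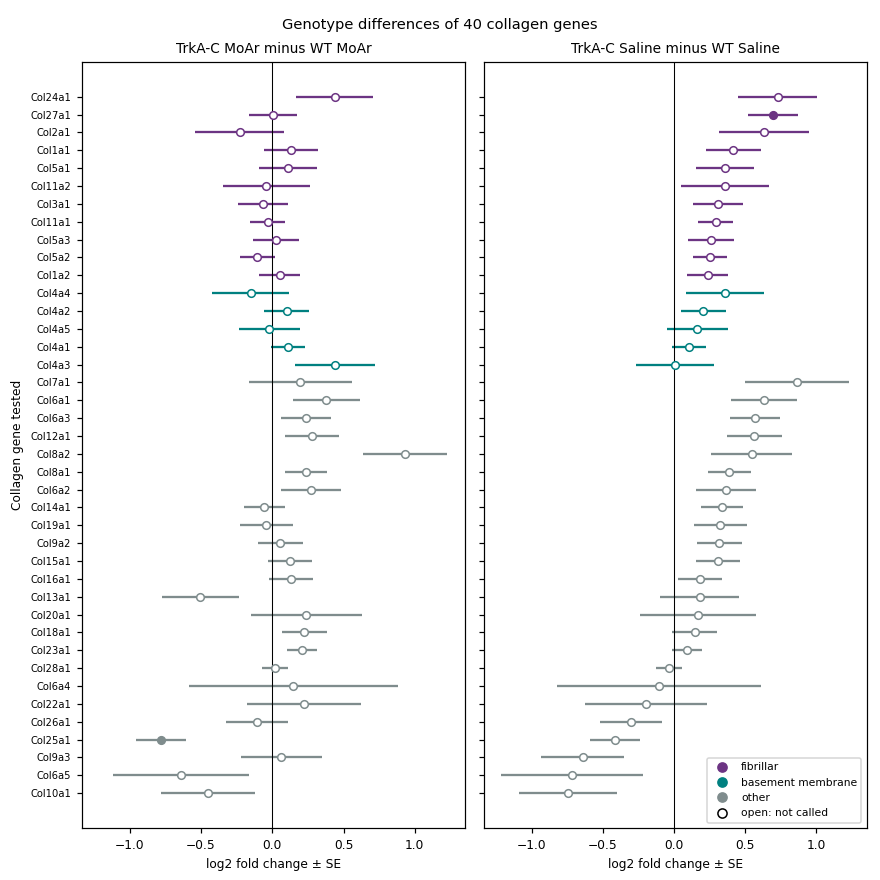
Log2 fold change ± SE of the 40 tested collagen genes, TrkA-C MoAr over WT MoAr on the left and TrkA-C Saline over WT Saline on the right, with filled points for called genes. After MoAr 26 of 40 points lie right of 0, after Saline 32 of 40, and Col25a1 and Col27a1 are the called genes.

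The second comparison asked the same under joint inflammation. Of the 40 collagens, 1 fell in TrkA-C MoAr relative to WT MoAr and 0 rose by edgeR, 2.5% against 2.84% of all genes called (1.09% higher and 1.75% lower), again no more than at large. DESeq2 called 2 and limma-voom 1, and 2 of 40 (5.0%) had an unadjusted p under 0.05, against 12.7% of all genes. All genes called numbered 441 here and 198 to 663 over the alternatives other than leaving out 1 library. The other members with the smallest p-values were Col8a2 (0.93 ± 0.29, edgeR adjusted p = 0.116), which DESeq2 called, Col23a1 (0.21 ± 0.10), Col13a1 (-0.51 ± 0.27), Col24a1 (0.44 ± 0.27) and Col6a1 (0.38 ± 0.23), the last 4 with edgeR adjusted p-values of 0.428 to 0.583. The log2 difference was positive for 26 of 40 collagens (65.0%, against 50.8% of all genes), with a median of 0.08. The fibrillar median was 0.00, the type IV median 0.10 and the median of the others 0.14. Without WT MoAr 3 the median over the 40 was -0.06, and with the fibroblast and stroma score as a covariate it was -0.12. In this comparison 8 of 8 tested neutrophil and marrow markers were positive (median 2.56), 11 of 11 muscle markers (median 4.46) and 7 of 8 perineurial and meningeal markers (median 0.69), with 0 called by edgeR, and their part in the collagen values was not tested beyond the fits named. The neutrophil and marrow list summed to 23.1, 5.78, 296 and 19.7 CPM in TrkA-C MoAr 1 to 4. In WT MoAr it summed to 5.56 to 34.1 CPM, so only TrkA-C MoAr 3 lay above the WT MoAr range.

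Col25a1 was the gene called. It encodes a membrane-spanning collagen made by neurons, whose shed part was found in amyloid plaques and which motor axons of mouse embryos need to enter muscle. It read 5.41, 4.03, 5.64 and 7.75 CPM in TrkA-C MoAr, against 9.86, 10.1, 11.0 and 8.39 CPM in WT MoAr. Every TrkA-C MoAr library lay below every WT MoAr library, and Col25a1 was the only collagen for which this held (2.5%, against 4.44% of all genes; none lay wholly above, against 3.70%). The log2 fold change was -0.78 ± 0.17 (edgeR adjusted p = 0.0169; 0.000930 to 0.0573 over the alternatives that kept all libraries or left out a pair). The call was lost without TrkA-C MoAr 2 (-0.65) or 3 (-0.77), the library with the most neutrophil and marrow RNA, without WT MoAr 2 (-0.76) or 3 (-0.72), and with the fibroblast and stroma score as a covariate (-0.75). After Saline it read 7.44, 5.86, 7.30 and 6.49 CPM in TrkA-C, against 8.77, 11.1, 9.61 and 6.54 CPM in WT. WT Saline 4 lay within the TrkA-C range, and the log2 difference was -0.41 ± 0.17 (edgeR adjusted p = 0.162). The interaction of genotype and injection was -0.37 ± 0.25 for Col25a1 (edgeR adjusted p = 0.718).

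The Col25a1 promoter window is shown because this gene ran against most collagens. It is chr3:130180595-130180894 on the plus strand of GRCm38.p6, written 5′ to 3′ from the RefSeq table, and the gene lies at 130180358 to 130599884. The window thus lies inside the gene's annotated span, and the start it is set on is not the 5′ end of that span. Capitals mark the longest stretch that a search found more than once in the window.
Col25a1: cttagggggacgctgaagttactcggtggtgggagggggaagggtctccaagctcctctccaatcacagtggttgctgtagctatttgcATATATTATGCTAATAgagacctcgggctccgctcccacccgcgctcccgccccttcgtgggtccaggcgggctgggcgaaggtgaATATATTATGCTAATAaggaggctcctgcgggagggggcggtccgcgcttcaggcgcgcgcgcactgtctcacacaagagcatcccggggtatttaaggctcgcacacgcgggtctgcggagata
The repeated stretch, ATATATTATGCTAATA, has 16 bases and its copies begin 161 and 75 bases before the start that the window is set on. Of the 32851 windows in the table, 1 holds this stretch on either strand, that of Col25a1. The window also holds CCAAT and GGGCGG and lacks TATAAA. Nothing about binding was measured.

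Over both injections, 3 collagens passed the test between TrkA-C and WT, 7.5% against 8.96% of all genes called (4.33% higher and 4.64% lower). At an unadjusted p under 0.05 there were 10 of 40 (25.0%), against 24.4% of all genes. Col25a1 fell, with a log2 fold change of -0.60 ± 0.12 and an edgeR adjusted p of 0.00444. It was called in each of the 16 fits that left out 1 library, at -0.69 to -0.53, and missed the threshold with the muscle marker score as a covariate (-0.50, adjusted p = 0.0544). Col8a2, a short-chain network collagen known from the basement membrane of the corneal endothelium, rose by 0.74 ± 0.21 (edgeR adjusted p = 0.0304). It read 4.74, 2.47, 2.96 and 2.61 CPM in TrkA-C MoAr and 3.43, 4.00, 3.27 and 5.80 CPM in TrkA-C Saline, against 2.64, 1.83, 0.855 and 1.33 CPM in WT MoAr and 3.61, 2.66, 2.78 and 2.24 CPM in WT Saline. The ranges of the genotypes overlapped, and WT MoAr was the lowest group. Its call was lost without TrkA-C MoAr 1 (0.62), TrkA-C Saline 4 (0.64), WT MoAr 3 (0.64), WT MoAr 4 (0.69) or WT Saline 3 (0.74), and was also lost without TrkA-C Saline 1 and 4 (0.65, adjusted p = 0.116), with limma-voom (0.56, adjusted p = 0.0612) and with the muscle score as a covariate (0.72, adjusted p = 0.0883). With the fibroblast and stroma score as a covariate the log2 difference of Col8a2 was 0.36 (adjusted p = 0.233).

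Col6a3, the third chain of collagen VI, rose by 0.40 ± 0.12 (edgeR adjusted p = 0.0494). It read 17.0, 16.1, 15.2 and 15.3 CPM in TrkA-C MoAr and 13.5, 20.6, 16.0 and 22.9 CPM in TrkA-C Saline, against 14.5, 14.5, 9.02 and 15.9 CPM in WT MoAr and 10.8, 11.3, 16.5 and 10.9 CPM in WT Saline. Of the 8 WT libraries, WT MoAr 1, 2 and 4 and WT Saline 3 lay within the TrkA-C range, and the other 4 lay below it. The call held in 4 of the 16 fits without 1 library, those without TrkA-C Saline 1 or 3, WT MoAr 4 or WT Saline 3, and was lost in the 12 others, at 0.33 to 0.43. It was also lost with library totals (0.40), robust dispersion (0.40), limma-voom (0.33), the replicate block (0.40), the muscle score (0.46) and without TrkA-C Saline 1 and 4 (0.41). With the fibroblast and stroma score as a covariate the log2 difference of Col6a3 was 0.20 (adjusted p = 0.380). Among members not called over both injections, Col12a1 (0.42 ± 0.13), Col6a1 (0.51 ± 0.17) and Col24a1 (0.58 ± 0.19) had edgeR adjusted p-values of 0.0594, 0.0638 and 0.0662.

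Without TrkA-C Saline 1 and 4, the libraries with the most muscle RNA, the counts of called collagens were 0 after Saline, 1 after MoAr and 1 over both injections, where Col25a1 remained. Without WT MoAr 3 they were 3, 0 and 1.

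**Figure D5:**
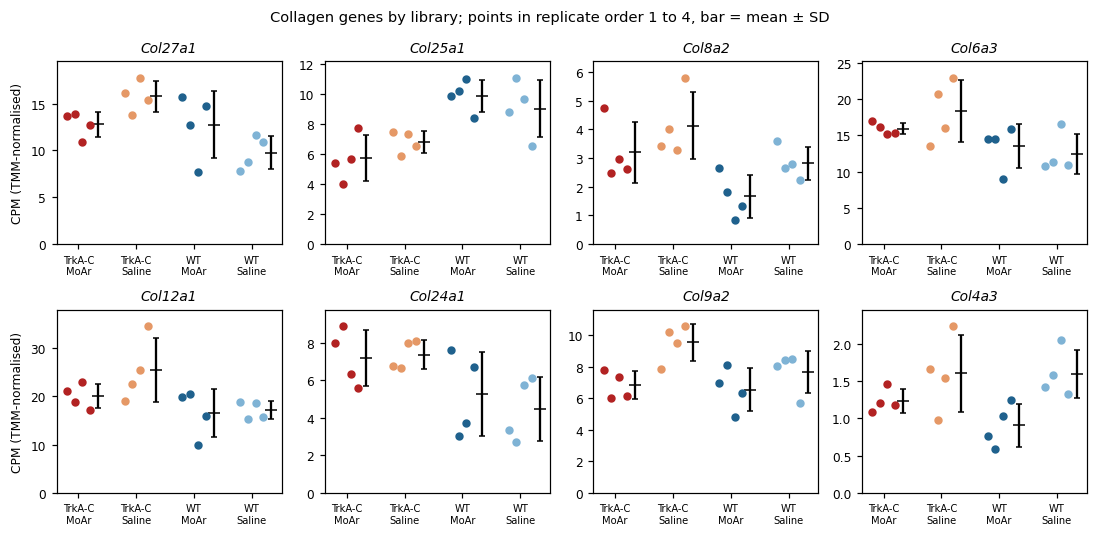
CPM of 8 collagen genes by library in the 4 groups, points in replicate order, bar = mean ± SD. Col27a1 has its highest mean in TrkA-C Saline (15.8 CPM), and Col25a1 is lower in TrkA-C MoAr (4.03 to 7.75 CPM) than in WT MoAr (8.39 to 11.0 CPM).

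Joint inflammation was compared with vehicle within each genotype. No collagen was called by edgeR, DESeq2 or limma-voom in WT or in TrkA-C, where edgeR called 0% of all genes. Over both genotypes 0 collagens and 0.0258% of all genes were called, and for the interaction of genotype and injection 0 collagens and 0% of all genes. At an unadjusted p under 0.05 there were 3 of 40 collagens in WT (7.5%, against 6.96% of all genes), 1 in TrkA-C (2.5%, against 5.68%), 3 over both genotypes (7.5%, against 6.57%) and 1 for the interaction (2.5%, against 6.29%). The median SE of a collagen's log2 difference was 0.19 in WT and 0.19 in TrkA-C, which sets the size of change that could be seen.

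Col4a3 had the smallest p-value in WT. This minor type IV chain read 0.764, 0.587, 1.03 and 1.24 CPM in WT MoAr, against 1.41, 1.58, 2.04 and 1.33 CPM in WT Saline, with no overlap (-0.80 ± 0.28, edgeR adjusted p = 0.703). It was the only collagen of 40 with WT MoAr wholly below WT Saline (2.5%, against 1.48% of all genes), and none lay wholly above (against 1.53%). The members next in p were Col8a2 (-0.76 ± 0.30), Col27a1 (0.39 ± 0.17), Col5a3 (0.27 ± 0.16), Col13a1 (0.41 ± 0.27) and Col9a2 (-0.23 ± 0.16), with edgeR adjusted p-values of 0.703 to 0.714. In TrkA-C it read 1.08, 1.21, 1.46 and 1.18 CPM after MoAr, against 1.66, 0.981, 1.54 and 2.23 CPM after Saline. These levels correspond to few reads, and part of its span overlaps Col4a4.

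Col9a2 had the smallest p-value in TrkA-C. It read 7.80, 5.98, 7.33 and 6.12 CPM in TrkA-C MoAr, against 7.88, 10.2, 9.52 and 10.6 CPM in TrkA-C Saline (-0.49 ± 0.16, edgeR adjusted p = 0.623). The groups did not overlap, by 7.80 against 7.88 CPM at the nearest libraries, and no other collagen lay wholly lower in TrkA-C MoAr (2.5%, against 2.04% of all genes), while none lay wholly higher (against 2.28%). Next in p were Col14a1 (-0.30 ± 0.15), Col5a2 (-0.24 ± 0.12), Col12a1 (-0.34 ± 0.19), Col2a1 (-0.56 ± 0.31) and Col27a1 (-0.30 ± 0.17), with edgeR adjusted p-values of 0.875 to 0.887. In WT it read 6.97, 8.08, 4.78 and 6.34 CPM after MoAr, against 8.06, 8.41, 8.48 and 5.66 CPM after Saline.

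After MoAr the log2 difference from Saline was negative for 31 of 40 collagens in TrkA-C (median -0.19), where 50.2% of all genes were positive, and positive for 27 of 40 in WT (median 0.06), where 48.4% of all genes were positive. The TrkA-C median was -0.24 to -0.093 when any 1 library was left out, -0.093 being the value without TrkA-C Saline 4, and -0.0070 with the fibroblast and stroma score as a covariate. The WT median was 0.0043 to 0.16 without any 1 library, 0.0043 without WT MoAr 1, 0.0046 without WT Saline 2 and 0.16 without WT MoAr 3. In TrkA-C, marker lists differed in the same comparison with 0 genes called by edgeR: 0 of 11 muscle markers were positive (median -4.59), 0 of 8 perineurial and meningeal markers (median -0.46) and 4 of 13 fibroblast and stroma markers (median -0.30), while 8 of 8 neutrophil and marrow markers were positive (median 2.86). The neutrophil and marrow list summed to 23.1, 5.78, 296 and 19.7 CPM in TrkA-C MoAr 1 to 4. In TrkA-C Saline it summed to 8.32 to 12.9 CPM, so 1 library, TrkA-C MoAr 3, lay far above the rest. In WT the medians were -5.57 for muscle, -0.54 for perineurial and meningeal, -0.25 for fibroblast and stroma, and -0.05 for neutrophil and marrow markers. Their part in the collagen values was not tested beyond the fits with a covariate. The fibrillar medians were -0.20 in TrkA-C and 0.15 in WT, and the type IV medians -0.10 in TrkA-C and 0.06 in WT. All 11 fibrillar members had a negative interaction term (median -0.33, range -0.86 to -0.18), where 50.9% of all genes were positive, and none was called. Since the members' levels run in parallel across libraries, these signs are not independent of each other. TrkA-C Saline 4 and WT MoAr 3, the ends of the fibrillar range, both enter this term. After Col27a1 the smallest p-values for the interaction belonged to Col5a2 (-0.36 ± 0.17), Col2a1 (-0.86 ± 0.44), Col14a1 (-0.39 ± 0.21), Col11a1 (-0.33 ± 0.18) and Col13a1 (-0.69 ± 0.39), each with an edgeR adjusted p of 0.718. Over both genotypes the smallest were those of Col9a2 (-0.36 ± 0.11, edgeR adjusted p = 0.461), Col4a3 (-0.59 ± 0.20, 0.505), Col8a2 (-0.57 ± 0.21, 0.572), Col6a1 (-0.26 ± 0.17, 0.867), Col12a1 (-0.20 ± 0.13, 0.872) and Col6a2 (-0.21 ± 0.15, 0.881). The TrkA-C Saline libraries enter this comparison and the genotype comparison after Saline alike, so the negative values in TrkA-C MoAr and the positive ones above share those libraries.

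Genes that make, bind or cut collagen were read beside the collagens. Of 28 genes of collagen synthesis and crosslinking, 2 fell in TrkA-C Saline relative to WT Saline and 26 were not called, 1 fell after MoAr and 27 were not called, and over both injections 2 fell. Of all genes, 2.19% fell after Saline, 1.75% after MoAr and 4.64% over both injections. Loxl4, a lysyl oxidase that crosslinks collagen and elastin, fell each time. It read 2.77, 3.16, 4.29 and 3.59 CPM in TrkA-C MoAr, against 6.71, 5.83, 7.27 and 5.62 CPM in WT MoAr (-0.88 ± 0.16, edgeR adjusted p = 0.00321), and 2.92, 3.58, 3.65 and 4.43 CPM in TrkA-C Saline, against 6.47, 5.66, 6.44 and 7.71 CPM in WT Saline (-0.85 ± 0.16, edgeR adjusted p = 0.00594). No TrkA-C library reached the lowest WT library. Pcolce2, which enhances the trimming of procollagen, fell by 0.39 ± 0.07 after Saline (edgeR adjusted p = 0.00656), and its log2 difference after MoAr was -0.15. The Saline call was lost without TrkA-C Saline 1 and 4 (-0.28).

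Of 11 tested matrix proteinases and their inhibitors, 2 fell in each genotype comparison and 9 were not called, beside the same 2.19%, 1.75% and 4.64% of all genes. Mmp15, a membrane-bound matrix metalloproteinase, read 157, 154, 140 and 150 CPM in TrkA-C MoAr, against 211, 199, 192 and 200 CPM in WT MoAr (-0.42 ± 0.05, edgeR adjusted p = 0.000126), and 158, 148, 166 and 157 CPM in TrkA-C Saline, against 199, 203, 194 and 189 CPM in WT Saline (-0.32 ± 0.05, edgeR adjusted p = 0.00147). All 8 TrkA-C libraries lay below all 8 WT libraries. Timp2, an inhibitor of metalloproteinases, fell by 0.22 ± 0.05 after MoAr (edgeR adjusted p = 0.0189) and by 0.21 ± 0.05 after Saline (edgeR adjusted p = 0.0257). Its MoAr call was lost without TrkA-C MoAr 3 (-0.21) or 4 (-0.20) or WT MoAr 1 (-0.21) or 3 (-0.20), and its Saline call without TrkA-C Saline 1 (-0.20), 2 (-0.21) or 4 (-0.20) or WT Saline 2 (-0.17). Both Timp2 calls were lost with the muscle score (-0.22 after MoAr, -0.20 after Saline) and with the fibroblast and stroma score (-0.21 and -0.20), and the Saline call also without TrkA-C Saline 1 and 4 (-0.18) and in a fit of the compared groups alone (-0.21). The calls of Loxl4 and Mmp15 held without any 1 library.

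Of 11 collagen receptors, Itga10, an integrin chain that binds collagen, rose after Saline (1.59 ± 0.38, edgeR adjusted p = 0.0250; 2.15% of all genes rose), 10 were not called, and after MoAr none was called. It read 0.951, 1.09, 2.49 and 1.48 CPM in TrkA-C Saline, against 0.389, 0.348, 0.740 and 0.532 CPM in WT Saline, and its call was lost without TrkA-C Saline 3 (1.24) or 4 (1.59) or WT Saline 1 (1.49). Of 14 tested partners of type IV collagen in the basement membrane, 2 rose after Saline and 12 were not called: Nid2, which links laminin to type IV collagen (0.39 ± 0.10, edgeR adjusted p = 0.0298), and Agrn, a heparan sulfate proteoglycan (0.39 ± 0.10, edgeR adjusted p = 0.0315). Both calls were lost without TrkA-C Saline 2 (Nid2 0.36, Agrn 0.37) or 4 (0.37 and 0.34) or WT Saline 4 (0.34 and 0.33), that of Nid2 also without WT Saline 3 (0.39) and that of Agrn without TrkA-C Saline 3 (0.39). The calls of Itga10, Nid2 and Agrn were all lost with the fibroblast and stroma score as a covariate (1.33, 0.30 and 0.28), without TrkA-C Saline 1 and 4 (1.84, 0.43 and 0.41) and in a fit of the compared groups alone (1.59, 0.40 and 0.39). Those of Itga10 (1.60) and Agrn (0.41) were also lost with the muscle score as a covariate, and that of Agrn with the replicate block (0.39). After MoAr 0 of 14 were called. Between MoAr and Saline no gene of these 4 lists was called in either genotype.

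The genes outside the collagens whose log2 CPM followed the mean of the 11 fibrillar members most closely over 16 libraries were Adgra2 (Pearson r = 0.91), Flna (0.91), Hspg2 (0.90), Plpp3 (0.89) and Reln (0.89), the largest of all genes tested and given as a description. Hspg2 encodes perlecan, a basement membrane proteoglycan. Among collagens, Col5a1 (0.91) and Col1a2 (0.87) followed that mean, of which they are part, while Col10a1 (-0.54) and Col25a1 (-0.40) ran against it.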

How the data were processed

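RNA was sequenced as single 50-nucleotide reads from poly-A libraries of 150 ng total RNA, per the labels' protocols. Per the submitters' processing notes the tools included TopHat2 2.1.1, Bowtie2 2.3.5.1 and HTSeq 0.6.1p1 with build mm10; annotation and strand mode are not given in the sources used here. The authors deposited whole-number counts of reads for each gene, not normalised. Entries with no gene identifier (28, with 0.192% of counts) stayed in the library totals.

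Groups came from the sample titles. In R 4.3.3, edgeR 4.0.16 (TMM, filterByExpr, 1 mean per group over 16 libraries, quasi-likelihood test) was fitted to the whole table, and p-values were adjusted by Benjamini-Hochberg over 15507 genes. "EdgeR adjusted p" means that value, and SE is the log2 fold change over the root of the F statistic. The script was tested on simulated counts. CPM is TMM-normalised, log2 CPM used a prior count of 2, and levels per length used union exon lengths of GENCODE in the mm10 build. For the r and rho of Col1a1 with Col1a2, Col4a1 with Col4a2 and Col6a1 with Col6a2, a small constant was added to CPM instead. Coordinates came from RefSeq (44 of 44 members matched by identifier).

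Members and lists were chosen with earlier results of these data known. Named were the 8 members with the highest CPM, every member called, the 6 smallest p-values of a comparison with fewer than 6 calls, up to 4 genes per other list with the smallest p-values, Ntrk3, and the 5 genes nearest the fibrillar mean. Some listed items are not reported here. Other members were named after their values were seen, such as those of the same-type pairs and of the low end. No 2 libraries of a group agreed within sampling noise (chi-square per degree of freedom 4.39 to 47.7). The pairs of WT Saline 4 with WT Saline 1, 2 and 3 had the highest values, 39.9, 47.7 and 21.8, and no other pair was above 16.3. Each library is a separate pool of mice. Alternatives were DESeq2 1.42.0, limma-voom 3.58.1, other size factors, filters and thresholds, a fit of the compared groups alone, a replicate block, covariates for a muscle marker score and for a split of WT source numbers at 5, and leaving out each library. A fit without TrkA-C Saline 1 and 4 and a covariate for the fibroblast and stroma score were added after seeing the data. A count of 3 equals 0.0733 to 0.132 CPM. Duplicate reads cannot be recognised in counts.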

Additional observations from a re-analysis of the deposited data

Results flagged for a closer look

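Within groups of 4 libraries, 12 of 112 groups tested (25 members and 3 class sums) held 1 library far from the rest by Dixon's criterion, where chance gives about 5.6. TrkA-C MoAr 1 was high for Col1a1 (106 CPM, the others 63.3 to 70.1), for Col6a2 (24.6, the others 12.8 to 13.7) and for the fibrillar sum (528, the others 373 to 396). TrkA-C Saline 4 was high for Col11a1 (18.7, the others 14.6 to 15.1). WT MoAr 3 was low for Col4a1 (82.1 CPM, the others 117 to 123), for Col4a2 (41.8, the others 69.9 to 71.9), for the type IV sum (128, the others 194 to 200) and for the sum of other collagens (272, the others 355 to 362). WT Saline 3 was high for Col6a3 (16.5 CPM, the others 10.8 to 11.3), for Col15a1 (44.9, the others 37.9 to 39.1) and for the fibrillar sum (427, the others 368 to 375). WT Saline 4 was low for Col9a2 (5.66, the others 8.06 to 8.48). Members of a sum and chains that run in parallel are not separate flags. The 25 members were also checked for groups that did not overlap and differed in opposite directions. None did so for MoAr against Saline in WT and in TrkA-C. None did so for TrkA-C against WT after MoAr and after Saline.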

How the results depend on the processing

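Called collagens between TrkA-C and WT numbered 1 after Saline, 1 after MoAr and 3 over both injections. After Saline the count was 3 with DESeq2, 2 with limma-voom, 0 with the replicate block, 0 with the muscle score, 4 with the WT source number split, 0 at an adjusted p under 0.01, 3 at one under 0.10, 0 without TrkA-C Saline 1 and 4, 0 with the fibroblast and stroma score, and 0 to 3 when 1 library was left out. After MoAr it was 2 with DESeq2, 2 with the WT split, 0 at an adjusted p under 0.01, 0 with the fibroblast and stroma score, and 0 to 2 without 1 library. Over both injections it was 7 with DESeq2, 0 with the muscle score, 6 with the WT split, 1 at an adjusted p under 0.01, 8 at one under 0.10, 1 without TrkA-C Saline 1 and 4, 1 with the fibroblast and stroma score, and 1 to 6 without 1 library. All genes called also varied over these alternatives. They numbered 132 to 1999 after Saline (673 in the reported fit), 198 to 663 after MoAr (441) and 630 to 2172 over both injections (1390). Without 1 library they numbered 284 to 905, 241 to 652 and 993 to 1430. A change in the collagen count between fits is thus not particular to collagens. The causes were not tested. For injection and the interaction the count was 0 under every alternative run.

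Signs turned for Col27a1 after MoAr in TrkA-C against WT, 0.00 in the reported fit (-0.11 with limma-voom, -0.026 with the muscle score, -0.14 with the fibroblast and stroma score, -0.17 to 0.12 without 1 library), and for Agrn there (-0.047 with limma-voom, -0.11 with the fibroblast and stroma score, -0.086 to 0.053 without 1 library). With the fibroblast and stroma score, MoAr minus Saline over both genotypes was 0.048 for Col6a1, 0.074 for Col12a1 and 0.068 for Col6a2, which were negative without it. Of 2169 single-gene values under alternatives, 1998 kept direction and side of the threshold, 118 lost a call, 38 gained one and 15 changed sign. Most of these values belong to genes not called in the reported fit, which had no call to lose, so the total does not show how steady the calls were.

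Same-numbered libraries did not deviate together (median correlation -0.03 over 24 pairs), so the numbers were not taken as pairs. The replicate block left the calls of Col25a1 after MoAr and of Col25a1 and Col8a2 over both injections (2 called), and ended that of Col27a1 after Saline (0.69, adjusted p = 0.0515). In 2 of 16 libraries the closest library of another group had the same number. Members below about 1 CPM rest on few counts, and a change in them was detectable only where it was large.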

Other observations

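The 5 genes whose log2 CPM followed that of Col25a1 most closely over 16 libraries were Syt16 (Pearson r = 0.92), Epn2 (0.92), Cpne4 (0.92), Rprm (0.91) and Slc17a6 (0.91), none of them a gene of the extracellular matrix. Slc17a6 encodes a vesicular glutamate transporter of neurons, and Epn2 an adaptor of endocytosis. This member was picked for the search after its values had been seen, the libraries share their genotype groups, and the values are a description. In the same libraries Col25a1 had an r of -0.40 with the mean of the fibrillar collagens.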
